A study of Mus musculus with 48 samples.

Results

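The hippocampus of 5-day-old mice without the DNA repair enzyme Aag was compared with that of wild-type mice of the same age. The comparison rests on 8 of the 48 RNA libraries of the study, which were chosen by tissue (hippocampus), age (postnatal day 5, P5) and genotype: 4 libraries from Aag knockout (KO, Aag-/-) males and 4 from wild-type (WT) males. The other libraries come from the prefrontal cortex and from older animals, aged 6 weeks (6W) or 4 to 6 months (labelled 6M). The labels name no treatment, strain or knockout construct, and the study's design text gives 4 animals per time point. KO and WT libraries are numbered 1 to 4 as in the sample titles.

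Aag, encoded by the gene Mpg, is a glycosylase that begins base excision repair: it cuts alkylated or deaminated bases out of DNA, after which an endonuclease, a polymerase and a ligase complete the repair. At P5 the hippocampus is still growing: dentate granule neurons are being added, astrocytes and oligodendrocyte precursors are spreading, and GABA, the transmitter of inhibitory synapses, acts on receptors whose subunit make-up is changing. The choroid plexus, the secretory epithelium of the ventricles that makes cerebrospinal fluid and the thyroid hormone carrier transthyretin (Ttr), is attached along the edge of the hippocampus, and the meninges, a sheath of fibroblasts and vessels, cover its surface and fill its fissure. Both can come along in a dissected sample, so their marker genes were measured in every library.

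Total counts in the 8 libraries ranged from 21926364 to 28906072, and mitochondrially encoded genes held from 9.59% to 13.2% of them. Expression is given as CPM (counts scaled to the TMM-normalised library size), and 3 counts, taken as the smallest signal, stood for 0.0898 to 0.117 CPM. Such floors cover counting error only. For the label of hippocampus, 12 genes of hippocampal neurons were measured. Prox1, Zbtb20, Neurod1 and the other members were all detected. The mean log2 CPM of the list lay between 5.55 and 5.77 in KO and between 5.48 and 5.65 in WT. Some members also belong to the cortical lineage, and the list's level in prefrontal cortex is not given here. Detection alone therefore cannot tell hippocampus from cortex. No pair of libraries of a group agreed within sampling noise (chi-square per degree of freedom from 12.03 to 30.8 over 12 pairs). Nothing beyond the design text says that the libraries of a group came from separate animals, so the p-values measure the spread between libraries. In the main fit this spread was estimated from all 24 hippocampus libraries, those of 6W and 6M included.

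The libraries differed most in choroid plexus transcripts. A score was formed as the mean log2 CPM of 18 choroid plexus epithelium markers, among them Ttr, the Klotho gene Kl, the potassium channel subunit gene Kcne2 and Otx2, the transcription factor that specifies this epithelium. The scores of KO 1 to KO 4 were 0.64, 3.40, 3.28 and -0.17, and those of WT 1 to WT 4 were 4.94, 5.05, 3.43 and 4.22. KO 1 and KO 4 therefore stood far below the rest, while KO 2 and KO 3 lay close to WT 3, and the 2 groups did not overlap. The markers' summed level was 89.5, 2096, 2027 and 62.5 CPM in KO 1 to 4 against 7981, 8045, 2150 and 4153 CPM in WT 1 to 4. None of the 18 markers was at 0 in any library.

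Ttr showed the spread of the whole list. It was at 16.1, 1867, 1822 and 7.31 CPM in KO 1 to 4 and at 7343, 7350, 1929 and 3736 CPM in WT 1 to 4. Its log2 fold change (KO over WT) was -2.46 (SE 1.51), and the difference was not called (edgeR adjusted p = 0.722). The KO libraries alone spanned 7.31 to 1867 CPM, and KO 2 and KO 3 were close to WT 3. All 18 markers had a negative log2 fold change, with a median of -2.04 against 0.02 for all 17786 tested genes. Of the 18, 13 were lower at an unadjusted p under 0.05, where 4.35% of all genes were, and none was called. Kl had the smallest p of the list (log2 fold change -1.98, SE 0.52, edgeR adjusted p = 0.184), with 3.60 to 11.7 CPM in KO and 14.1 to 41.1 CPM in WT. Next by p came Sostdc1, a secreted antagonist of BMP and Wnt signals (-1.63, SE 0.59), and Enpp2, which encodes the lysophospholipase autotaxin (-1.61, SE 0.59). In bulk tissue, fewer cells of a type and less RNA per cell cannot be told apart.

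Meningeal transcripts differed less. The score of 16 meningeal fibroblast markers was 2.48, 2.83, 2.28 and 1.90 in KO 1 to 4 and 2.46, 3.26, 3.58 and 3.03 in WT 1 to 4. Here the groups overlapped, since WT 1 lay below KO 1 and KO 2. All 16 markers had a negative log2 fold change with a median of -0.60, 5 of them were lower at an unadjusted p under 0.05 (4.35% of all genes), and Ogn was called (0.118% of all genes). Without WT 3, the library with the highest meningeal score, the median was -0.34. The summed level ranged from 158.6 to 285.0 CPM in KO and from 207.7 to 327.4 CPM in WT. The collagen genes Col1a1, Col1a2 and Col3a1, which define fibroblasts, were between 20.6 and 65.6 CPM in every library. Slc47a1, an organic cation transporter gene of the meninges, was at 0 in KO 2 and ranged up to 1.28 CPM in WT 2.

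**Figure D1:**
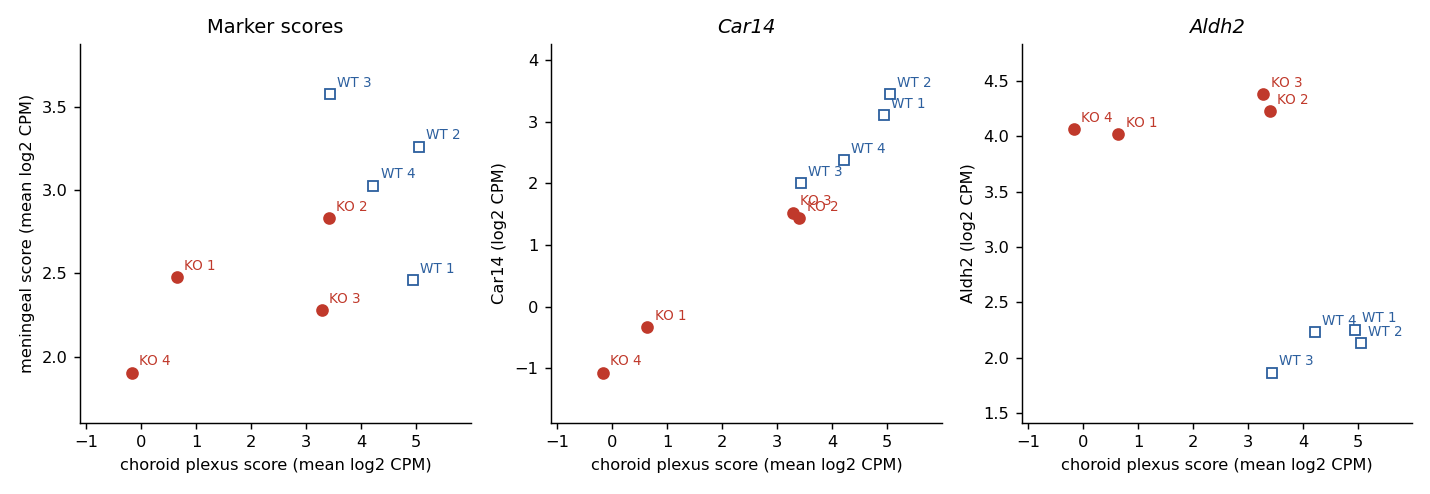
Left, the meningeal score against the choroid plexus score, both as mean log2 CPM of the markers; middle and right, log2 CPM of Car14 and of Aldh2 against the choroid plexus score. Each point is 1 library (filled circles KO, open squares WT). Car14 rose with the score from KO 4 at -0.17 to WT 2 at 5.05, while Aldh2 was high in all 4 KO libraries at any score.

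Of the 17786 genes tested, 21 differed between KO and WT at P5 (edgeR quasi-likelihood test, Benjamini-Hochberg adjusted p under 0.05), which is 0.118%. A gene past this threshold is named as called. Of these, 3 were higher in KO (0.0169%: Aldh2, Gabra2 and the pseudogene Gm12663) and 18 were lower (0.101%), the target Mpg included. In 20 of the 21 no KO value overlapped a WT value, as in 4.54% of all tested genes, and the exception was Prps2. At an unadjusted p under 0.05, 619 genes were higher and 773 lower (7.83% together).

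The 21 genes fell into sets of 8 and 13 by a further fit that held the choroid plexus score as a covariate. With the score, 8 genes were called (0.0450% of the genes tested), and all 8 were among the 21: Aldh2, Mpg, G530011O06Rik, Ublcp1, Gabra2, Slco1a4, Gm12663 and Pttg1. The other 13, all lower in KO, were no longer called. Because this fit defined the sets, their contrast in it is a description. The 8 genes are described first.

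**Figure D2:**
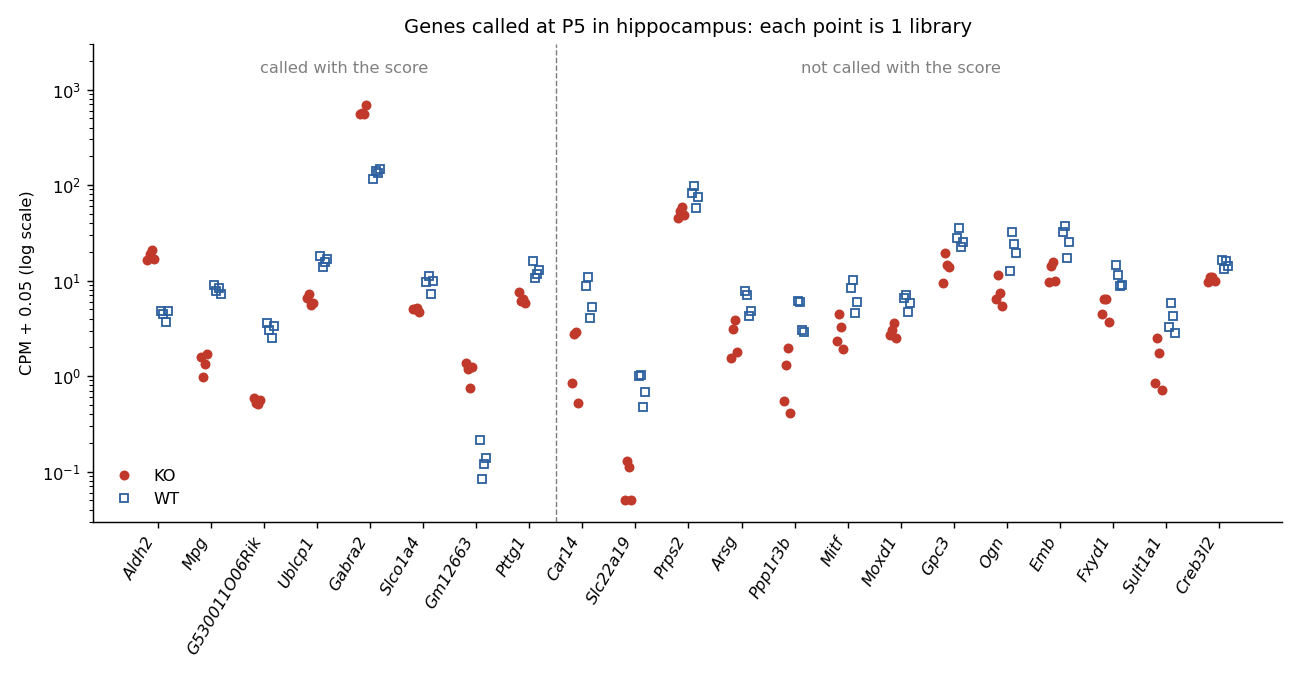
Level of the 21 called genes in each of the 8 libraries, as CPM + 0.05 on a log axis (filled circles KO, open squares WT; libraries 1 to 4 from left to right). Left of the dashed line are the 8 genes also called with the choroid plexus score in the fit. Among them, Slco1a4 was at 4.61 to 5.08 CPM in KO. Right of the line are the other 13, where KO 1 and KO 4 were the lowest.

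The target Mpg (ENSMUSG00000020287) was measured first as a check of the labels. It lies on chromosome 11 at 32226505 to 32232700 (GRCm38, GENCODE M21), where Nprl3 runs over it in the other direction. Mpg was at 1.55, 0.940, 1.28 and 1.65 CPM in KO 1 to 4 and at 8.89, 7.65, 8.25 and 7.15 CPM in WT 1 to 4. All KO libraries were far below all WT libraries, as the genotype labels say. The KO mean was 17.0% of the WT mean (log2 fold change -2.55, SE 0.19, edgeR adjusted p = 1.65e-09). The part of the gene that was deleted is not given in the sources used here, and 34.0% of its sequence, counted in words of 31 bases, is also found antisense to other genes.

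Aldh2 (ENSMUSG00000029455), the mitochondrial dehydrogenase that oxidises acetaldehyde and lipid-derived aldehydes, had the smallest p of all genes. It lies on chromosome 5 at 121566027 to 121593824. Its level was 16.2, 18.8, 20.8 and 16.7 CPM in KO 1 to 4 and 4.77, 4.39, 3.64 and 4.70 CPM in WT 1 to 4. The KO libraries formed a tight group well above the WT group, 4.14 times as high on average (log2 fold change 2.05, SE 0.12, edgeR adjusted p = 1.10e-11). With the choroid plexus score in the fit the log2 fold change was 2.12 (SE 0.13). Of the 17 tested genes of a list of aldehyde dehydrogenases and related enzymes, Aldh2 was the single one called. The median of the list was 0.09, and 3 members were higher at an unadjusted p under 0.05, where 3.48% of all genes were. The other 2 were Aldh1l2, a mitochondrial folate enzyme (log2 fold change 0.32, edgeR adjusted p = 0.50), and Aldh16a1 (0.49, edgeR adjusted p = 0.618).

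Gabra2 (ENSMUSG00000000560), on chromosome 5 at 70957597 to 71095849, encodes the alpha2 subunit of the GABA-A receptor, the chloride channel of fast inhibition. It was at 559, 561, 558 and 697 CPM in KO 1 to 4 and at 115, 140, 132 and 147 CPM in WT 1 to 4. KO 4 stood above the other KO libraries, which were within 4 CPM of each other, and every KO library exceeded every WT library by a wide margin. The KO mean was 4.45 times the WT mean (log2 fold change 2.15, SE 0.18, edgeR adjusted p = 1.57e-08). No other gene of the receptor was called. Among 17 tested genes for subunits and for anchoring proteins such as gephyrin (Gphn), Gabra2 alone was called, and the list had a median of -0.01. Gabra5, the alpha5 subunit enriched in hippocampus, was at 409 to 487 CPM in KO and 366 to 416 CPM in WT.

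Ublcp1 and Gm12663 changed in opposite directions, and most of the shorter Gm12663 sequence recurs in Ublcp1. Ublcp1 (ENSMUSG00000041231), on chromosome 11 at 44454571 to 44470498, encodes a phosphatase that acts on the proteasome in the nucleus. Gm12663 (ENSMUSG00000101316), at 16635109 to 16636066 of the same chromosome, is annotated as a processed pseudogene. Counted in words of 31 bases, Gm12663 shares 82.5% of its sequence with Ublcp1, which in turn shares 30.3% with the pseudogene. As an example, a 75-base stretch is given that is as long as the reads and was chosen to hold exactly 1 difference. It comes from a coding exon of Ublcp1 (minus strand, chr11:44466815-44466889). Its counterpart is in the exon of Gm12663 (minus strand, chr11:16635913-16635987), and both run 5′ to 3′ from the GENCODE M21 transcripts on GRCm38. The capital marks the single difference, A44G, counted from 1 at the 5′ end with the base of Ublcp1 first.
Ublcp1: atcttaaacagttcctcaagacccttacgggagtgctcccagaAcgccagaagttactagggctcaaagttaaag
Gm12663: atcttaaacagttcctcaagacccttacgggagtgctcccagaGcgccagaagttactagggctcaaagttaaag

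Ublcp1 was at 6.45, 7.13, 5.57 and 5.78 CPM in KO 1 to 4 and at 17.9, 13.9, 15.4 and 16.6 CPM in WT 1 to 4. No KO library came near the lowest WT library, and the KO mean was 39.0% of the WT mean (log2 fold change -1.36, SE 0.11, edgeR adjusted p = 6.71e-09). Gm12663 had 37, 29, 23 and 33 counts in KO 1 to 4 and 5, 1, 2 and 3 counts in WT 1 to 4. Summed over libraries, the normalised ratio of KO to WT was 11.9 (95% exact interval 6.40 to 24.4, counting error only), and the gene was called (edgeR adjusted p = 0.00174). How reads that match both genes were assigned is not given in the sources used here, so both values are uncertain, and whether assignment enters the differences was not tested.

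Pttg1 (ENSMUSG00000020415) encodes securin, which holds separase inactive until sister chromatids part. It lies on chromosome 11 at 43420250 to 43426251, close to Ublcp1. Its level was 7.49, 6.07, 6.42 and 5.81 CPM in KO 1 to 4 and 15.9, 10.6, 11.6 and 12.8 CPM in WT 1 to 4. The groups did not overlap, and the KO mean was 50.6% of the WT mean (log2 fold change -0.98, SE 0.15, edgeR adjusted p = 0.00185). Pttg1 was the single called gene of 17 for securin, separase, cohesin and the anaphase-promoting complex (median 0.01). Smc1a, a ring subunit of cohesin, was next by p (log2 fold change 0.21, edgeR adjusted p = 0.541). The 12 markers of dividing cells, such as Mki67 and Top2a, had a median of 0.04 and no member at an unadjusted p under 0.05.

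G530011O06Rik (ENSMUSG00000072844), a noncoding transcript of unnamed function on the X chromosome at 169975043 to 169978917, was at 0.459 to 0.540 CPM in KO and 2.46 to 3.57 CPM in WT. It had 56 counts over the KO libraries and 376 over the WT libraries, a normalised WT to KO ratio of 6.28 (95% exact interval 4.73 to 8.47, counting error only; edgeR adjusted p = 6.71e-09). Its value is uncertain, since Mid1 lies across it in the other direction and 18.4% of its words of 31 bases recur in other transcripts on the same strand and 44.7% on the opposite strand.

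Slco1a4 (ENSMUSG00000030237), on chromosome 6 at 141805440 to 141856199, encodes an organic anion transporter of the blood-brain barrier that is also made in the choroid plexus. It was at 4.94, 5.01, 5.08 and 4.61 CPM in KO 1 to 4 and at 9.57, 11.2, 7.25 and 9.76 CPM in WT 1 to 4. The KO values were nearly equal, and the groups did not overlap. Among the WT libraries, WT 3, with the lowest choroid plexus score, was lowest and WT 2, with the highest, was highest. The KO mean was 52.0% of the WT mean (log2 fold change -0.94, SE 0.13, edgeR adjusted p = 0.000438), and with the score it was -0.86 on the log2 scale (edgeR adjusted p = 0.0101). In a fit of the 8 P5 libraries alone with the score it was -0.76 and not called (edgeR adjusted p = 0.53). Of 10 endothelial markers, Slco1a4 alone was called. The list had a median of -0.04, and its summary score was 3.82 to 4.14 in KO and 4.05 to 4.23 in WT. Emcn, a sialomucin of capillaries and veins, had the next smallest p (log2 fold change -0.47, edgeR adjusted p = 0.38), and Flt1, a VEGF receptor, followed (-0.16, edgeR adjusted p = 0.74).

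The 13 genes that were called without the score and not with it included transporters and ion regulators, enzymes, matrix proteins and transcription factors. In all 13, KO 1 and KO 4 were the 2 lowest of the 8 libraries, as in 4.72% of all tested genes and in 30.1% of the 773 genes lower at an unadjusted p under 0.05. Since the fit with the score chose the 13, this order is in part fixed by that choice and is a description. KO 1 and KO 4 are also the libraries with the fewest choroid plexus transcripts. Among the 5 lower genes of the first set the same held for Slco1a4 alone. WT 3, which had the lowest choroid plexus score of its group, was the lowest WT library in 9 of the 13. It was so in 2 of the 5 lower genes of the first set, and these counts too are a description.

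Car14 (ENSMUSG00000038526), a membrane-bound carbonic anhydrase gene on chromosome 3 at 95897768 to 95904691, was among the genes with this order. It was at 0.793, 2.70, 2.88 and 0.475 CPM in KO 1 to 4 and at 8.63, 10.9, 4.00 and 5.18 CPM in WT 1 to 4. KO 2 and KO 3 lay closest to WT 3, the WT library with a like score. The log2 fold change was -2.05 (SE 0.36, edgeR adjusted p = 0.00986) without the score and -1.47 (SE 0.29, edgeR adjusted p = 0.0604) with it. Each unit of the score went with 0.26 log2 units of Car14 (SE 0.05, edgeR adjusted p = 0.00967). Aph1a overlaps Car14 antisense, as Cenpp does Ogn, Sgf29 does Sult1a1 and noncoding genes do Mitf and Ppp1r3b. Without the strand setting of the counting, reads of such pairs cannot be told apart.

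The promoter of Car14 is shown because the core of the motif bound by OTX factors, TAATCC, read as GGATTA on the other strand, was searched for in the promoters of the 13 genes, given that Otx2 is a marker in the score. The window is the RefSeq promoter on GRCm38.p6 (minus strand, chr3:95904636-95904935), from 250 bases before to 50 after the start of the gene, with the match in capitals.
Car14: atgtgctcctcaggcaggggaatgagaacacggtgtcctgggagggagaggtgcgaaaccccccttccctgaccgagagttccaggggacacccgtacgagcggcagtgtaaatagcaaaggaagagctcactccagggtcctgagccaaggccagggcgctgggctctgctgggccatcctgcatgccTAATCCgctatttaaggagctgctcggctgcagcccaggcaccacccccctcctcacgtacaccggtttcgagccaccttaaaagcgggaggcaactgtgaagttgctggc

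The match is a description of these letters and not of binding. Promoters were found for 12 of the 13 genes, and 2 of their 15 promoters held the motif on either strand, that of Car14 and 1 of 3 of Mitf (chr6:97929567-97929866). Among all 32851 promoters, 7.06% held it, and among 18 promoters of the choroid plexus markers with an entry, 1 did.

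Other genes of transport, ion balance and metabolism among the 13 shared the low place of KO 1 and KO 4. WT 3 was the lowest WT library for Emb, Fxyd1 and Slc22a19, and WT 4 was for Ppp1r3b. Emb, on chromosome 13, encodes embigin, a partner of monocarboxylate transporters, and was at 9.66, 14.3, 15.6 and 9.91 CPM in KO 1 to 4 and 31.9, 37.5, 17.2 and 25.1 CPM in WT 1 to 4. KO 3 came close to WT 3 without reaching it. Its log2 fold change of -1.17 (SE 0.23, edgeR adjusted p = 0.0268) became -0.66 (SE 0.16, edgeR adjusted p = 0.317) with the score, and its slope on the score was 0.20 (edgeR adjusted p = 5.2e-05). Ppp1r3b, on chromosome 8, encodes a subunit that directs protein phosphatase 1 to glycogen. It was at 0.504, 1.25, 1.93 and 0.366 CPM in KO 1 to 4 and at 6.00, 5.95, 2.96 and 2.87 CPM in WT 1 to 4, so that KO 1 and KO 4 were again lowest and WT 3 and WT 4 lowest of their group. The log2 fold change moved from -2.11 (edgeR adjusted p = 0.012) to -1.39 (edgeR adjusted p = 0.308).

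Fxyd1, on chromosome 7, encodes phospholemman, a regulator of the sodium pump, and was at 3.62 to 6.36 CPM in KO and 8.79 to 14.4 CPM in WT (log2 fold change -1.07, edgeR adjusted p = 0.0351). With the score it was at -0.97 in the fit of 24 libraries and at -0.47 in that of the 8 P5 libraries. Slc22a19, an organic anion transporter gene on chromosome 19, was at the edge of detection: KO 1 to 4 had 0, 2, 2 and 0 counts and WT 1 to 4 had 29, 28, 12 and 21. The normalised WT to KO ratio of the summed counts was 21.05 (95% exact interval 7.94 to 78.9, counting error only; edgeR adjusted p = 0.0114).

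Enzyme genes were next. Prps2, on the X chromosome, encodes a synthetase of phosphoribosyl pyrophosphate, the precursor of nucleotides. It was at 44.9, 53.9, 59.0 and 48.8 CPM in KO 1 to 4 and at 82.6, 97.5, 57.8 and 75.2 CPM in WT 1 to 4, and KO 3 lay above WT 3 (log2 fold change -0.60, edgeR adjusted p = 0.0114). Arsg, a lysosomal sulfatase gene on chromosome 11, was at 1.51 to 3.82 CPM in KO and 4.18 to 7.69 CPM in WT (-1.22, edgeR adjusted p = 0.012). Sult1a1, a phenol sulfotransferase gene on chromosome 7, was at 0.658 to 2.47 CPM in KO and 2.78 to 5.71 CPM in WT (-1.5005, edgeR adjusted p = 0.0351), and it shares 9.35% of its 31-base words with other transcripts. Moxd1, which encodes a copper monooxygenase and lies on chromosome 10, was at 2.45 to 3.58 CPM in KO and 4.64 to 7.09 CPM in WT (-1.04, edgeR adjusted p = 0.0244).

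Matrix genes and transcription factors made up the rest. Ogn, on chromosome 13, encodes the small proteoglycan osteoglycin and is the called member of the meningeal list. It was at 6.34, 11.3, 7.40 and 5.34 CPM in KO 1 to 4 and at 12.5, 32.5, 23.9 and 19.4 CPM in WT 1 to 4, and WT 1, the WT library with the lowest meningeal score, was its lowest WT value (log2 fold change -1.54, edgeR adjusted p = 0.0268). Gpc3, a glypican gene on the X chromosome, was at 9.29 to 19.3 CPM in KO and 22.3 to 35.8 CPM in WT (-0.96, edgeR adjusted p = 0.0268). Mitf, on chromosome 6, encodes the transcription factor of pigment cells and retinal pigment epithelium. Its level was 2.31, 4.46, 3.18 and 1.87 CPM in KO 1 to 4 and 8.27, 9.999, 4.54 and 5.93 CPM in WT 1 to 4, where KO 2 and WT 3 almost met. Mitf had a log2 fold change of -1.28 (edgeR adjusted p = 0.0191) without the score and -0.87 (edgeR adjusted p = 0.317) with it. Creb3l2, also on chromosome 6, encodes a transcription factor held in the endoplasmic reticulum and had the smallest change, with 9.58 to 10.9 CPM in KO and 13.1 to 16.2 CPM in WT (-0.53, edgeR adjusted p = 0.0479).

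All 13 log2 fold changes were nearer to 0 with the score, and none reversed. Their median log2 fold change was -1.22 without the score and -0.97 with it, and their edgeR adjusted p-values with the score ran from 0.0604 to 0.601, with unadjusted values up to 0.00918. All 13 slopes on the score were positive. Of these, 4 were called (Car14, Ppp1r3b, Mitf and Emb), where 0.742% of all genes had a called positive slope. None of the slopes of the 8 genes called with the score had an unadjusted p under 0.05, where 6.28% of all slopes did. Since this fit defined both sets, the moves toward 0 and these slopes are in part fixed by that choice and are a description. In a fit of the 8 P5 libraries alone, which left 5 residual degrees of freedom, the median of the 13 was -1.24 without the score and -0.51 with it, and 6 genes were called with it (0.0364%), of which 5 were in the first set. With the meningeal score 12 genes were called (0.0675%): the first set, Ogn (itself a marker of that score), Car14, Prps2 and Arsg. The median of the 12 genes outside the score was -1.15. With both scores the 8 genes of the first set were called and none of the 13 was.

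The score's slope was estimated from all 24 hippocampus libraries. At P5 the highest KO score (3.40) lay just under the lowest WT score (3.43), while at 6W the scores ran from 1.25 to 5.35 in KO and from 0.30 to 3.76 in WT, and at 6M from 0.58 to 4.07 and from 1.45 to 4.49. A called positive slope was found for 132 genes (0.742%), which were the 18 markers and 114 others. Of these 114, 112 had a negative log2 fold change at P5, against 45.2% of all genes, and 73 were lower at an unadjusted p under 0.05, against 4.35%. Their median was -0.98 without the score and -0.04 with it, which is a description, since the same fit chose them. The amount of choroid plexus in each sample is known here through its transcripts alone, and its part in the 13 differences beyond these fits was not tested.

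**Figure D3:**
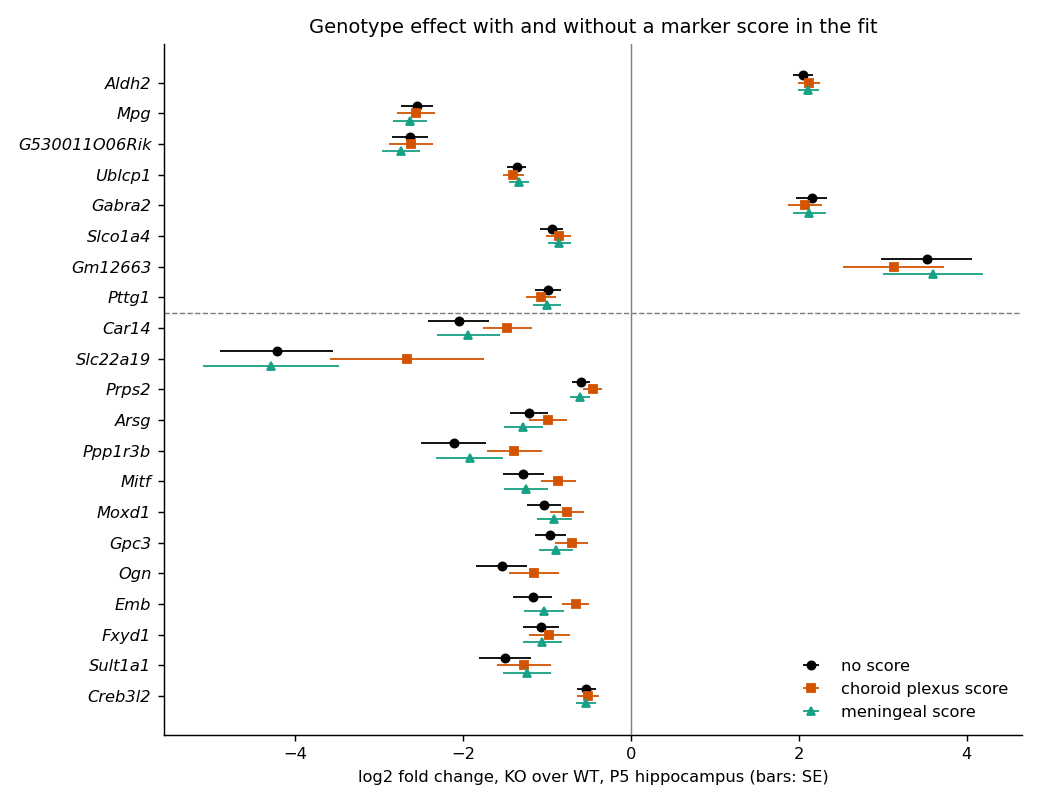
Log2 fold change of KO over WT at P5 for the 21 called genes without a score (circles), with the choroid plexus score (squares) and with the meningeal score (triangles) in the fit of 24 hippocampus libraries. Bars are standard errors, and Ogn has no triangle because it is part of the meningeal score. With the choroid plexus score, Aldh2 above the dashed line goes from 2.05 to 2.12 and Gm12663 from 3.52 to 3.13; all genes below the line move toward 0, such as Emb from -1.17 to -0.66.

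The calls of the 13 genes, though less so the size of their differences, changed with the libraries left out. Without KO 1, 8 genes were called in all, and without WT 2, 9 were; none of the 13 was among them. Without KO 4, 13 genes were called, with Car14 as the single one of the 13, and without WT 1, 14 were called with 3 of the 13. In these fits the median log2 fold change of the 13 was -1.07 without KO 1, -1.08 without WT 2, -1.08 without KO 4 and -1.10 without WT 1, against -1.22 with all libraries. Without KO 2, KO 3, WT 3 or WT 4, between 9 and 12 of the 13 kept their calls, and the totals were 24, 21, 29 and 26. The 8 genes of the first set were called without each of the 8 libraries in turn.

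Whether the P5 differences were particular to this age was tested as the genotype effect at P5 minus its mean at 6W and 6M. This difference was called for 2 of the 17786 genes, Pttg1 and Slco1a4 (0.0112%). For Pttg1 the log2 fold change was -0.98 at P5 and -5.29 (SE 0.14) at the later ages, so the P5 effect was 4.31 log2 units nearer to 0 (edgeR adjusted p = 2.67e-13). Slco1a4 had a log2 fold change of -0.94 at P5 and -0.04 (SE 0.08) later, a difference of -0.90 (edgeR adjusted p = 0.0384), whose call was lost in 7 of the 8 fits that left out a P5 library (adjusted p from 0.00289 to 0.263) while the difference stayed between -1.01 and -0.81. The other genes of the first set, Aldh2, Mpg, G530011O06Rik, Ublcp1, Gabra2 and Gm12663, were called at the later ages too, in the same direction. Aldh2 had a log2 fold change of 1.42 later against 2.05 at P5 and Gabra2 1.30 against 2.15, and neither difference between ages was called (edgeR adjusted p = 0.377 and 0.469).

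None of the 13 was called at the later ages, where 7 of the 21 genes and 0.0675% of all genes were. Car14 was at -0.25 (SE 0.23) there, Mitf at -0.07 (SE 0.16) and Emb at -0.13 (SE 0.16). No difference between ages was called for any of the 13, although 11, Slc22a19 not among them, had an unadjusted p under 0.05. So did 6 of the 8 genes of the first set and 4.81% of all genes. The P5 effect that chose both sets is part of this difference, so nothing is read from these counts.

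In the prefrontal cortex at P5, in a fit of all 48 libraries, 7 of the 21 genes were called against 0.0637% of the 18849 genes tested. These were the first set without Slco1a4, which had a log2 fold change of -0.54 (SE 0.19, edgeR adjusted p = 0.443). None of the 13 was called there. Car14 had the opposite sign, 0.91 (SE 0.37), and it was the single gene whose effect differed between the 2 regions (0.00531% of genes): the difference, hippocampus minus prefrontal cortex, was -2.96 (edgeR adjusted p = 0.00823). Without WT 2 the difference was -2.69 with an edgeR adjusted p of 0.0525, so the call, more than the size, changed with that library. An unadjusted p under 0.05 for the difference between regions was found for 12 of the 13, all but Slc22a19, and for 4.06% of all genes, and here too the P5 effect that chose the 13 is part of the difference, so the count is a description. Slc22a19 could not be estimated in prefrontal cortex or at the later ages, where its counts were at or near 0.

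**Figure D4:**
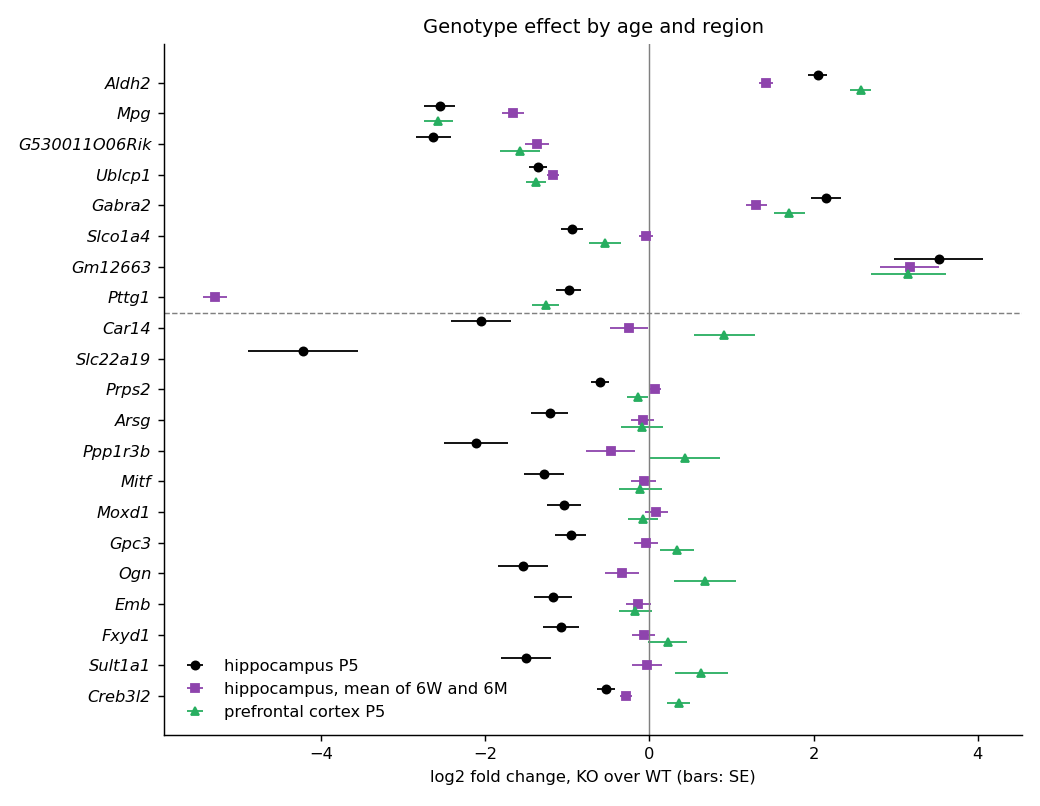
Log2 fold change of KO over WT for the 21 called genes in hippocampus at P5 (circles), in hippocampus as the mean of 6W and 6M (squares) and in prefrontal cortex at P5 (triangles); bars are standard errors. Above the dashed line the 3 values of a gene mostly lie on the same side of 0, with Pttg1 at -5.29 at the later ages; below it the squares and triangles lie near 0 or, for Car14 in prefrontal cortex, at 0.91. Values of Slc22a19 outside P5 hippocampus are left out, since they could not be estimated.

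No listed gene of base excision repair or direct alkylation reversal was called; the target Mpg is not in these lists. The 26 tested base excision repair genes had a median log2 fold change of 0.11 with 17 positive and 9 negative values. Aptx, the aprataxin gene whose product trims failed ligation ends, was the member with the smallest p, at 16.6 to 17.5 CPM in KO and 14.8 to 15.9 CPM in WT (log2 fold change 0.18, SE 0.08, edgeR adjusted p = 0.625). Pold1, the catalytic subunit of DNA polymerase delta, followed with 0.38 (SE 0.19, edgeR adjusted p = 0.637), and Smug1, a uracil glycosylase, with 0.24 (edgeR adjusted p = 0.678). The KO values of Aptx, Pold1 and Parp2 all lay above the WT values, as for 2.49% of all genes; Parp2 was picked after its values were seen. The 4 genes of direct alkylation reversal had a median of 0.07, with Alkbh2 at 0.33, Alkbh3 at 0.09 and Alkbh1 at -0.12, each with an edgeR adjusted p of at least 0.819. For the 10 targets of p53 the median was 0.0049, with 5 values on each side of 0, and Sesn2, a stress-induced regulator, had the smallest p (-0.34, edgeR adjusted p = 0.693).

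Neuronal lists showed small values. In the 12 hippocampal neuron genes the median was 0.10. Neurod1, Emx2 and Neurod2, transcription factors of the hippocampal and cortical lineage, were higher at an unadjusted p under 0.05, as were 3.48% of all genes (log2 fold changes 0.26, 0.22 and 0.29; edgeR adjusted p from 0.58 to 0.618). The 10 genes of striatal medium spiny neurons, a neighbouring territory, had a median of -0.29, and Tac1, Ppp1r1b and Sh3rf2 were lower at that threshold, as were 4.35% of all genes (edgeR adjusted p = 0.274, 0.292 and 0.618). The slope of Sh3rf2 on the choroid plexus score was called. Tac1, the precursor of substance P, was at 13.2 to 18.5 CPM in KO and 21.3 to 26.8 CPM in WT, with no overlap. Neocortical layer genes (median 0.09), thalamic genes (0.14) and Cajal-Retzius cell genes (0.15) had no member at an unadjusted p under 0.05.

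Glial, blood and vessel lists held no called gene apart from Slco1a4. Gpr17, a receptor of committed oligodendrocyte precursors, was at 23.7 to 26.6 CPM in KO and 33.5 to 35.8 CPM in WT (log2 fold change -0.46, SE 0.14, edgeR adjusted p = 0.319) and did not overlap. Of the other precursor genes, Enpp6, a phosphodiesterase gene of newly formed oligodendrocytes, had a log2 fold change of -0.56 (edgeR adjusted p = 0.541), and Bcas1, also of early oligodendrocytes, had -0.50 (edgeR adjusted p = 0.669) without overlap between groups. Cspg4, the NG2 proteoglycan gene, was at 0.25 and the lineage factor gene Olig1 at 0.15 (edgeR adjusted p = 0.678 and 0.883), and the list median was -0.09. Myelin genes had a median of -0.37, led by Cldn11, a tight junction gene also made by meningeal cells (-0.80, edgeR adjusted p = 0.359). The medians were -0.04 for astrocytes, -0.14 for microglia, -0.41 for macrophages of the brain's borders, -0.41 for red blood cells, -0.03 for mural cells and 0.20 for ependymal cells. All 6 border macrophage genes were negative, and all 7 Cajal-Retzius cell genes were positive. All 6 red blood cell genes were negative, where 45.2% of all genes were. Alas2, the enzyme gene that starts haem synthesis in these cells, was at 1.22 to 1.997 CPM in KO and 2.21 to 3.21 CPM in WT, without overlap (-0.72, edgeR adjusted p = 0.481). Hbb-bs, an adult beta globin gene, was at 91.9 to 142 CPM in KO and 107 to 229 CPM in WT (-0.56, edgeR adjusted p = 0.604).

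Carriers of retinoids and thyroid hormone, with Ttr among them, had a median of -0.34. Of the 12, 3 were lower at an unadjusted p under 0.05, where 4.35% of all genes were, among them Rdh10, which makes retinaldehyde (-0.34, edgeR adjusted p = 0.304), and Crabp2, which binds retinoic acid (-1.41, edgeR adjusted p = 0.603). Crabp2 belongs to the meningeal list. In the insulin-like growth factor list (median -0.09), Igf2, also a meningeal marker, was at 0.951 to 3.33 CPM in KO and 2.57 to 5.50 CPM in WT (-1.02, edgeR adjusted p = 0.548). Immediate early genes (median -0.01) and interferon-stimulated genes (-0.06) each had 1 of 10 members lower at an unadjusted p under 0.05. These were Fosb and Ifi27, and 4.35% of all genes were lower at that threshold.

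**Figure D5:**
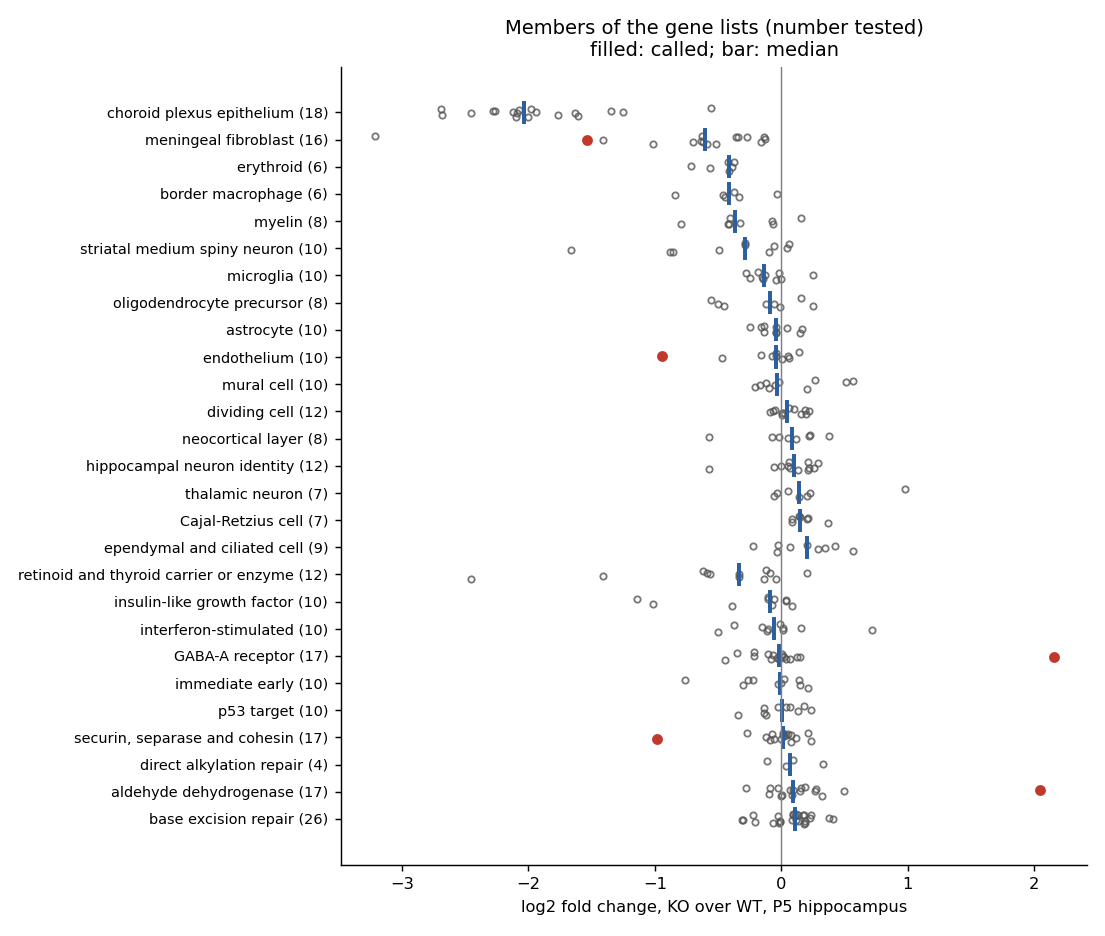
Log2 fold change of KO over WT at P5 for the tested members of 17 cell type lists (upper block) and 10 pathway lists (lower block), with the number tested in brackets. Points are genes, filled where called, and bars are list medians. Choroid plexus markers, with a median of -2.04, and meningeal markers, at -0.60, lie lowest; the filled points are Ogn, Slco1a4, Gabra2, Pttg1 and Aldh2.

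By position, 5 of the 21 called genes lay on chromosome 11, the chromosome of Mpg: Mpg, Ublcp1, Pttg1, Gm12663 and Arsg. This chromosome held 1325 of the 17786 tested genes. Of the 10 genes with the smallest p among those higher in KO, 6 were on this chromosome, where 6.04% of the tested genes were higher at an unadjusted p under 0.05 against 3.48% of all genes, and 3.40% were lower against 4.35%. Next to Gm12663 these were Sp2, a transcription factor gene (log2 fold change 0.51, SE 0.11, edgeR adjusted p = 0.064), Kcnmb1, a subunit of the BK potassium channel (1.48, SE 0.34, edgeR adjusted p = 0.0864), Actg1, the gamma actin gene (0.33, edgeR adjusted p = 0.202), 1700052K11Rik (0.43, edgeR adjusted p = 0.282) and Arhgap27, a GTPase activator gene (0.60, edgeR adjusted p = 0.294). Kcnmb1 was at 1.98, 1.29, 1.74 and 1.499 CPM in KO 1 to 4 and at 0.4217, 0.554, 0.857 and 0.509 CPM in WT 1 to 4, without overlap, and overlaps Kcnip1 on the opposite strand. Of the remaining genes with small p, Ssbp3, a cofactor of LIM homeodomain factors on chromosome 4, was at 95.4 to 106 CPM in KO and 64.4 to 82.5 CPM in WT (0.37, edgeR adjusted p = 0.0748), and 9330171B17Rik on chromosome 7 was at 1.10 to 1.61 against 0.629 to 0.964 CPM (0.79, edgeR adjusted p = 0.214). Within 5 Mb of Mpg, 53 other genes were tested, within 10 Mb, 83, and within 20 Mb, 201; none, none and 3 of them were called, against 0.118% of all genes. At an unadjusted p under 0.05 the shares were 13.2%, 14.5% and 10.4%, against 7.83% of all genes. Aldh2 and Gabra2 were the 2 called genes of chromosome 5, and 3 of the called genes were on chromosome 6 and 3 on the X chromosome. The strain background of either genotype is not given in the sources used here, and its part in these positions was not tested.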

How the data were processed

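RNA went over columns and into stranded poly(A) libraries with a Lexogen SENSE kit, read as single 75-base reads, per the labels' protocols. The submitters' processing notes name bcl2fastq 2.20.0.422, STAR 2.4.0, HTSeq and the build GRCm38. The authors deposited whole-number counts per Ensembl gene, without normalization; strand use in counting is not given in the sources used here. Symbols were matched for 54723 of 54838 genes and positions are from GENCODE M21. The 24 hippocampus libraries (6 groups of 4) were fitted with edgeR 4.0.16 in R 4.3.3 (glmQLFit, TMM, filterByExpr; 18 residual degrees of freedom), and all 48 (36 degrees of freedom) for the difference between regions. P-values were Benjamini-Hochberg adjusted over all tested genes. A score is the mean log2 CPM (prior count 1) of its markers, centred. A SE is the log2 fold change over the square root of F. Alternatives included DESeq2 1.42.0, other filters and scalings, the 8 libraries alone, scores, a replicate block and each library left out.

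Named genes are Mpg, Ttr, Aldh2, Gabra2, Pttg1, all called genes, the 10 smallest p in each direction, and in each list the 3 smallest p and any called member; a few others describe a list, and a few are not reported here. The comparison, the gene lists and the tests were chosen with earlier results of these data known. On simulated counts (17905 genes), 81% of changes of 1 log2 unit and 100% of 2 were recovered, with 6.22% false calls. With a score in the fit 79% and 98% were recovered. The changes were placed only in genes above a minimum mean count, so recovery for genes of few counts such as Slc22a19 was not measured. The markers and the genes made to follow the score were left out of the false calls.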

Additional observations from a re-analysis of the deposited data

Results flagged for a closer look

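Among 262 sets of 4 values (genes named and list scores, KO and WT apart), 18 held a value far from the other 3 (Dixon's test at the 95% level); chance gives about 13.1. In KO 4, Gabra2 was at 696.9 CPM (the others 558 to 561), Neurod1 at 206 (149 to 158) and F13a1 at 0.878 (2.63 to 2.82), and the astrocyte and oligodendrocyte precursor scores were 6.19 and 4.08. KO 3 had Fezf2 at 87.2 CPM (99.3 to 101), Mag at 1.47 (0.979 to 1.02) and Reln at 361.5 (280 to 285). KO 2 had Kcnj8 at 4.23 CPM and a myelin score of 1.87. Among WT libraries, WT 4 had Tac1 at 26.8 CPM (21.3 to 21.8), Aptx at 15.9 (14.8 to 14.9) and a p53 target score of 3.85, WT 1 had Ifit1 at 0.4217 CPM, Aurkb at 7.88 and a GABA-A receptor score of 5.66, WT 2 had Neurod2 at 58.5 CPM (83.3 to 87.9) and WT 3 had Ifit3 at 0.107 CPM.

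Effects that differed between conditions were those of Pttg1 (P5 against later ages, edgeR adjusted p = 2.67e-13), Slco1a4 (the same contrast, 0.0384) and Car14 (hippocampus against prefrontal cortex, 0.00823).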

How the results depend on the processing

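Of the comparisons of the 21 called genes with an alternative, 282 kept the call, 114 lost it and none reversed; 8 of the genes kept it in every alternative except the fit of 8 libraries with the choroid plexus score, an alternative added after seeing the data, where Slco1a4 (-0.76), Gm12663 (3.15) and Pttg1 (-0.99) lost it (-0.94, 3.52 and -0.98 as reported). The number of calls at P5, 21, became 244 with no filter on low counts (19 higher, 225 lower), 59 with DESeq2, 38 in the fit of only the 8 samples, 8 with the choroid plexus score, 12 with the meningeal score, 8 with both and 6 with the score in 8 samples. The fit of only the 8 samples kept 16 of the 21 calls and lost those of Car14, Prps2, Arsg, Mitf and Sult1a1. Leaving out single libraries gave 8 to 29 calls at P5, 1 to 3 for the difference between ages and 0 to 2 for that between regions. Without a filter these differences had 113 and 42 calls. The same-numbered KO and WT libraries had correlations of deviations of 0.05, -0.24, 0.21 and 0.39, so the numbers were not taken as pairs. With the number as a replicate block 28 genes were called, all 21 among them, the difference between ages had 1 call, and that of Slco1a4 was -0.90 with an edgeR adjusted p of 0.0673; the difference between regions had 1 call. The difference between ages of Slco1a4 was -1.01 to -0.81 without single libraries, and that of Car14 between regions was -3.36 to -2.66. The medians of the choroid plexus and meningeal lists kept their sign and moved by less than the SD of the WT scores under each alternative without a score, the meningeal one most without WT 3 (-0.34 against -0.60). With the choroid plexus score the median of its own markers was -0.02, and those of the mural (0.03), immediate early (0.17), interferon-stimulated (0.10), growth factor (0.04) and securin (-0.0011) lists changed sign; with the meningeal score those of the meningeal (0.08), endothelial (0.0058), mural (0.02), astrocyte (0.0058) and interferon-stimulated (0.02) lists did. Of named genes not called, the sign turned for Ppp1r1b (0.12) and Ccng1 (-0.0053) in 8 samples with the score, Sh3rf2 (0.10) with both scores, Mrc1 (0.0307) with the meningeal score, Igfbp2 with the choroid plexus score (0.13) and both (0.28), and Reln without KO 3 (-0.0068, against up to 0.14 without the other libraries). The cause of these changes was not tested. With 4 libraries a group, genes of few counts such as Slc22a19 and Gm12663 have wide intervals.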
